A study of Arabidopsis thaliana with 12 samples.

Results

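The heat response of wild-type Arabidopsis thaliana flowers was taken from 6 of the 12 RNA sequencing libraries of a series on flowers. The 3 heat libraries came from wild-type (WT) flowers held at 38 °C and the 3 mock libraries from WT flowers at 22 °C; the series gives 3 hours for the treatment. Every library pooled 9 flowers that spanned stages 1 to 12, so buds of all ages up to just before opening were read as a mix. The other 6 libraries came from a mutant of XBAT31 at both temperatures. They entered the filter on low counts, the scaling and the spread of the fit, and a test of whether the heat response differed between genotypes. The members are all genes of the genome: 27715 were listed, and 23585 passed the filter on low counts and were tested. The accession of the wild type and the growth conditions are not given in the sources used here. The labels speak of biological replicates without saying whether these were separate plants or days, so p-values may cover technical spread alone.

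In plants, a rise in temperature unfolds proteins, and heat shock factors then switch on genes for chaperones that keep proteins soluble or refold them. Beyond chaperones, heat is known to slow the cell cycle, to close down part of growth metabolism, to draw on abscisic acid, the hormone of water shortage, and to act on the circadian clock and on the splicing of messenger RNA. Flowers are a sensitive stage, since anthers and the pollen in them fail easily when it is hot. The account below deals mainly with genes outside heat shock. A gene was counted as heat shock if its symbol or description named a heat shock protein or factor, a chaperone, a DnaJ, BAG or crystallin protein, or ClpB.

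The libraries at 38 °C held 53485825 to 63088433 counts and those at 22 °C 48365909 to 53789648. Principal component 1 of the 6 WT libraries held 50.03% of the variance and set the 38 °C libraries (58.1 to 71.6) apart from the 22 °C libraries (-74.0 to -57.3). On component 2, with 15.5%, replicate 2 at 38 °C (-61.6) and replicate 3 at 22 °C (-37.2) were the lowest, with the others at 16.1 to 36.4. Flower markers were present in every library: the summed level of the organ identity genes was 439 to 475 FPKM at 38 °C and 458 to 488 FPKM at 22 °C, against 3.58 to 8.25 and 4.80 to 6.65 FPKM for the root markers. FPKM are fragments scaled to transcript length and depth. Genes of maturing pollen varied between replicates, with a sum of 992, 442 and 1145 FPKM at 38 °C and 916, 1149 and 1997 FPKM at 22 °C. Those of the tapetum varied too, with 184, 79.4 and 195 FPKM at 38 °C and 63.5, 161 and 92.3 FPKM at 22 °C. Since whole flowers were read, fewer cells of a type and less RNA per cell cannot be told apart in any result below.

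Heat moved a large part of the genome, mostly by modest amounts. At an adjusted p below 0.05, 3375 genes rose (14.3% of those tested) and 3866 fell (16.4%), 7241 in all (30.7%). The shares of 14.3% and 16.4% are the background for the counts of lists and families below. Outside heat shock 3287 genes rose (14.1% of 23309) and 3840 fell (16.5%), so heat shock genes made up 88 of the genes that rose and 26 of those that fell. The median rise was 1.498-fold and the median fall 1.501-fold. Changes of 4-fold or more were more often rises: 365 genes outside heat shock rose that much and 161 fell that much. In 11015 tested genes (46.7%) the 2 groups did not overlap in FPKM, and 6894 of the called genes were among them.

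The balance of rises and falls depended on how libraries were scaled and on which libraries were fitted. The main normalization was TMM, the trimmed mean of M-values. With 10 reference genes as the scale, the median log2 fold change was 0.24 in place of -0.05, a shift of 0.29, and then 7159 genes rose and 1278 fell. Rises thus made up 46.6% of the calls with the main scaling, 84.9% with reference genes and 61.8% with limma on log2(FPKM + 1). They made up 53.7% with the size factors of DESeq2. With the main scaling on only the 6 wild-type libraries 3979 genes rose and 3202 fell, so 55.4% of the calls were rises. With the main scaling, 3 of those 10 reference genes themselves fell and none rose, with a median of -0.19. Among the 3 was ACT2, an actin, with 66.3, 64.7 and 67.9 FPKM at 38 °C against 152, 139.6 and 116 FPKM at 22 °C (a log2 difference of -1.13, SE 0.11, adjusted p = 3.71e-05). Counts under the reference-gene scaling are given below for the groups that fell. Without replicate 3 at 22 °C the number of genes that fell was 2568, and without 1 of the other libraries it was 2601 to 3330.

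**Figure D1:**
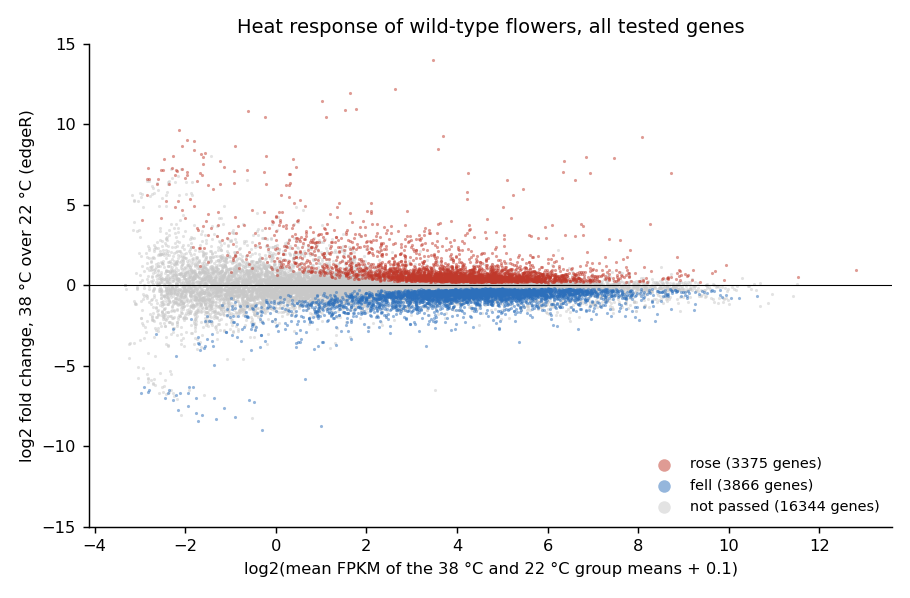
Log2 fold change of each tested gene (38 °C over 22 °C, vertical axis) against its mean level (log2 of FPKM + 0.1, horizontal axis), with one point per gene. Red points are the 3375 genes that rose, blue points the 3866 that fell and grey points those that did not pass; most coloured points lie within 1 unit of 0.

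The share of genes that rose or fell differed with their level. When tested genes were split into quintiles by their mean FPKM at 22 °C, 31.8% of the highest quintile fell and 11.9% rose, while in the lowest 2.61% fell and 8.95% rose. The share that fell was larger with each quintile, through 10.2%, 15.2% and 22.1%. Genes that rose held 20.6%, 20.3% and 19.4% of the summed FPKM at 38 °C against 11.7%, 11.4% and 10.96% at 22 °C. Genes that fell held 18.3%, 20.1% and 19.1% at 38 °C against 26.7%, 26.5% and 26.5% at 22 °C. The power of the test to call a gene differs between the quintiles, since counts are low in the lowest. The quintiles were set by the 22 °C levels that also enter the fold change, so these shares are not independent of the change. Shares by quintile were not counted under reference-gene scaling.

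**Figure D2:**
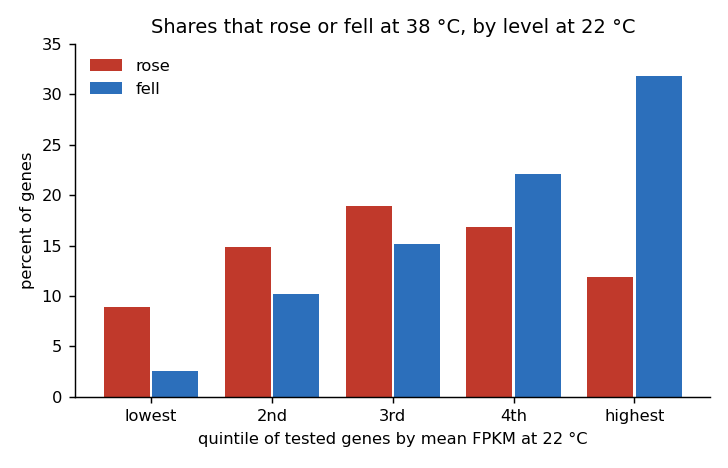
Percent of tested genes that rose (red) or fell (blue) at 38 °C in each quintile of genes ordered by mean FPKM at 22 °C, with 4717 genes per quintile. The share that fell is 2.61% in the lowest and 31.8% in the highest quintile, and the share that rose peaks at 19.0% in the middle one.

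The 15 steepest rises outside heat shock were taken among genes with a symbol, at least 5 FPKM and groups that do not overlap. They began with APX2 and came from genes of several functions. APX2, a cytosolic ascorbate peroxidase that removes hydrogen peroxide (Chr3:2956156-2958327, plus strand, TAIR10), had 29.9, 22.8 and 23.9 FPKM at 38 °C and 0, 0 and 0.0982 FPKM at 22 °C. It was thus barely detected in any mock library and present in every heat library (a log2 fold change of 9.31, SE 0.79, adjusted p = 1.54e-05). GolS1, galactinol synthase, which starts the synthesis of the protective sugar raffinose (Chr2:19368798-19370441, minus strand), had 85.8, 54.7 and 66.6 FPKM at 38 °C and 4.19, 3.201 and 3.15 FPKM at 22 °C (4.20, SE 0.24, adjusted p = 1.23e-06); it overlaps a gene on the other strand. RAB18, a dehydrin made in drying tissue and in answer to abscisic acid (Chr5:26518277-26519242, minus strand), had 27.9, 21.8 and 18.9 FPKM at 38 °C and 2.46, 1.44 and 0.474 FPKM at 22 °C (3.87, SE 0.74, adjusted p = 0.00238). By the condition on overlap, the lowest heat library stood above the highest mock library in each of these genes.

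RD29A, RD28 and LEA7 belonged to the same 15 genes. RD29A, a classic marker of cold and drought, had 27.3, 22.2 and 22.3 FPKM at 38 °C and 3.36, 3.65 and 1.68 FPKM at 22 °C (2.96, SE 0.25, adjusted p = 1.35e-05). RD28, an aquaporin of the plasma membrane, had 105, 66.2 and 95.5 FPKM at 38 °C and 12.8, 9.17 and 8.20 FPKM at 22 °C (3.05, SE 0.39, adjusted p = 2.08e-04). LEA7, a late embryogenesis abundant protein (Chr1:19619745-19621534, plus strand), had 11.1, 7.75 and 7.26 FPKM at 38 °C and 0.603, 0.648 and 0.473 FPKM at 22 °C (3.79, SE 1.05, adjusted p = 0.0184). The call of LEA7 was lost without replicate 1, 2 or 3 at 22 °C (adjusted p = 0.0559, 0.0588 and 0.0583) or replicate 1 at 38 °C (0.0562). Of 71 late embryogenesis abundant proteins tested, 12 rose and 10 fell, or 16 and 4 with reference-gene scaling, and without replicate 1, 2 or 3 at 38 °C the falls were 6 each time. The main shares of 16.9% and 14.1% lay near the 14.3% and 16.4% of all tested genes.

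The promoters of 4 genes that rose are shown because each holds a motif known for heat shock factors or for abscisic acid factors. They are the 250 bases before the gene start in RefSeq (TAIR10.1), 5′ to 3′ on the gene's strand. Capitals mark the heat shock element, 3 alternating blocks GAA, TTC and GAA with 2 free bases between blocks, in GolS1 (2:19370479-19370728, minus strand) and PRR7 (5:642031-642280, minus strand). In RAB18 (5:26519448-26519697, minus strand) and LEA7 (1:19619474-19619723, plus strand) they mark the abscisic acid response element ACGTGNC, each searched on both strands.
GolS1: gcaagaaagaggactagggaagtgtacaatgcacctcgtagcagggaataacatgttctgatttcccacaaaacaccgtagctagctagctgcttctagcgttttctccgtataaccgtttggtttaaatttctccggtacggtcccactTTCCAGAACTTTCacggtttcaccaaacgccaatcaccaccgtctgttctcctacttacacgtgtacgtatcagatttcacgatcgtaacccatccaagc
PRR7: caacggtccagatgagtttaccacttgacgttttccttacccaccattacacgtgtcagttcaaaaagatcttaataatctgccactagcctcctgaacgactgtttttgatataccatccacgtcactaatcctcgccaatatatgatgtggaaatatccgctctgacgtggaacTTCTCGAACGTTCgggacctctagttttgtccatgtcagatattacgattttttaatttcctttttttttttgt
RAB18: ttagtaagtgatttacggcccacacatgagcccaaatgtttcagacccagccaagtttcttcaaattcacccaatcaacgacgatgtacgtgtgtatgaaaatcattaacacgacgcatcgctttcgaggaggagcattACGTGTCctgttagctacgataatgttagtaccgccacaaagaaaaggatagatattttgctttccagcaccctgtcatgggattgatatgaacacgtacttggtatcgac
LEA7: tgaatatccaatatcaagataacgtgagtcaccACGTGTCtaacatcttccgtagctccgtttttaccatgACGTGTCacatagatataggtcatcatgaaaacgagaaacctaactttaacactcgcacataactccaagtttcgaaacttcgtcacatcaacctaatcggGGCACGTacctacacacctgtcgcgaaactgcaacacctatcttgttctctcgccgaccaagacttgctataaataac
The match lies 88 to 100 bases before the start in GolS1, 62 to 74 in PRR7 and 105 to 111 in RAB18, while LEA7 holds 3 matches. Of 22925 tested genes with such a window 94 (0.410%) held the heat shock element. It stood in 6 of 88 heat shock genes that rose, or 6.82%, and in 7 of 651 genes outside heat shock that rose 2-fold or more, or 1.08%. The abscisic acid element, which overlaps the G-box CACGTG in some windows, stood in 9.26% of all windows, in 13.7% of those 651 and in 11 of 38 windows of the abscisic acid list. A match is a description of the letters, not a shown binding site.

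Further rises of this rule were spread over regulators, defence and sulfur. ERF53, a drought-linked transcription factor, averaged 7.63 ± 1.63 FPKM at 38 °C and 0.277 ± 0.0537 FPKM at 22 °C (SD, n = 3 each; log2 fold change 4.65). A gene listed as CHI and described as a putative chitinase averaged 14.1 ± 1.36 and 0.540 ± 0.282 FPKM (4.59). DES1, a cysteine desulfhydrase that releases hydrogen sulfide, averaged 13.96 ± 3.24 and 1.53 ± 0.511 FPKM (3.08). MBF1C, a coactivator needed for heat tolerance whose gene overlaps one on the other strand, averaged 176 ± 62.5 and 19.3 ± 2.81 FPKM (3.09). RLP30, a receptor-like protein of immunity whose gene overlaps another on the same strand, averaged 5.10 ± 1.25 and 0.528 ± 0.123 FPKM (3.16). Hop3, a co-chaperone, and HSA32, which sustains acquired heat tolerance, had log2 fold changes of 3.14 and 3.13; their descriptions name no heat shock protein, so the rule kept them.

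Both other genes of this rule rested on less firm values. XPL1, an enzyme of phosphocholine synthesis, had 31.7, 40.4 and 38.0 FPKM at 38 °C and 0.594, 0.674 and 0.579 FPKM at 22 °C (a log2 fold change of 5.79, SE 1.63, adjusted p = 0.0197). It overlaps another gene on the same strand, so reads could have been given to either, and its adjusted p was 0.0637, 0.0653 and 0.0620 without replicate 1, 2 or 3 at 22 °C. CYP71B31, a cytochrome P450, had 7.26, 1.304 and 7.24 FPKM at 38 °C and 0.320, 0.614 and 0.397 FPKM at 22 °C (3.45, SE 1.15, adjusted p = 0.0414). Its heat replicate 2 stood close to the mock libraries, and the adjusted p was 0.107 without replicate 1 and 0.0978 without replicate 3 at 38 °C. Without replicate 1, 2 or 3 at 22 °C it was 0.115, 0.0882 and 0.104.

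The 15 steepest falls by the same rule also came from genes of several functions. PRODH1, proline dehydrogenase, which starts the breakdown of proline (Chr3:12448636-12451248, minus strand), had 24.1, 22.2 and 39.9 FPKM at 38 °C and 159.9, 159 and 205 FPKM at 22 °C (a log2 fold change of -2.70, SE 0.32, adjusted p = 1.21e-04). ACHT5, an atypical thioredoxin of the chloroplast, had 8.17, 7.57 and 9.48 FPKM at 38 °C and 49.8, 53.2 and 52.8 FPKM at 22 °C (-2.72, SE 0.27, adjusted p = 3.88e-05). BT5, a BTB and TAZ domain protein, had 1.11, 1.25 and 1.31 FPKM at 38 °C and 6.53, 6.83 and 6.98 FPKM at 22 °C (-2.56, SE 0.28, adjusted p = 6.66e-05); it overlaps a gene on the other strand. Groups that do not overlap were a condition here as well, and in PRODH1 replicate 3 was the highest of each group.

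Among the cell surface proteins of this set, the arabinogalactan proteins FLA9 and FLA13 averaged 4.72 ± 0.754 and 1.01 ± 0.358 FPKM at 38 °C and 21.9 ± 3.098 and 6.97 ± 4.40 FPKM at 22 °C (-2.30 and -2.84). Of the 24 fasciclin-like arabinogalactan proteins tested, 12 fell and none passed as a rise; with reference-gene scaling 8 fell. RTFL16, a small peptide of the ROTUNDIFOLIA family that restrains organ growth, averaged 1.32 ± 0.388 FPKM at 38 °C and 9.88 ± 2.57 FPKM at 22 °C (-2.97). DIN10, a raffinose synthase family protein induced in the dark, averaged 6.50 ± 1.92 and 29.3 ± 4.84 FPKM (-2.26). MIOX2, which opens the ring of inositol on the way to cell wall sugars, averaged 4.27 ± 2.34 and 18.6 ± 4.22 FPKM (-2.23). PAP25, a purple acid phosphatase, GDPD6, a phosphodiesterase, and ENODL6, an early nodulin-like protein, had log2 fold changes of -2.81, -2.26 and -2.28.

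The other 4 genes of this set spread widely within groups. CWINV2, a cell wall invertase whose gene overlaps one on the other strand, had 9.02, 1.58 and 15.8 FPKM at 38 °C and 18.1, 43.1 and 94.2 FPKM at 22 °C (-2.67, SE 0.90, adjusted p = 0.0418). GH9B11, a glycosyl hydrolase, had 3.24, 1.89 and 7.81 FPKM at 38 °C and 8.84, 22.4 and 48.6 FPKM at 22 °C (-2.74, SE 0.73, adjusted p = 0.0149). In both genes replicate 2 was lowest at 38 °C and replicate 3 highest at 22 °C, as in the pollen sums of 992, 442 and 1145 FPKM and 916, 1149 and 1997 FPKM given above. PMEI5, a pectin methylesterase inhibitor (-2.38, adjusted p = 0.0223), and DAZ3, a zinc finger protein of sperm cells (-2.19, adjusted p = 0.0263), had the same lowest and highest libraries, and so did PRODH1 and MIOX2. The calls of CWINV2, GH9B11, PMEI5 and DAZ3 were lost without replicate 3 at 22 °C (adjusted p = 0.164 for CWINV2, 0.0698 for GH9B11, 0.102 for PMEI5 and 0.0931 for DAZ3). They were lost too without replicate 1 at 38 °C (0.113, 0.0626, 0.0866 and 0.0622 in that order of genes) and without replicate 2 there (0.0949, 0.0527, 0.0732 and 0.0827). CWINV2 also missed the threshold without replicate 2 at 22 °C (0.0665). The part of the pollen markers in these falls was not tested.

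**Figure D3:**
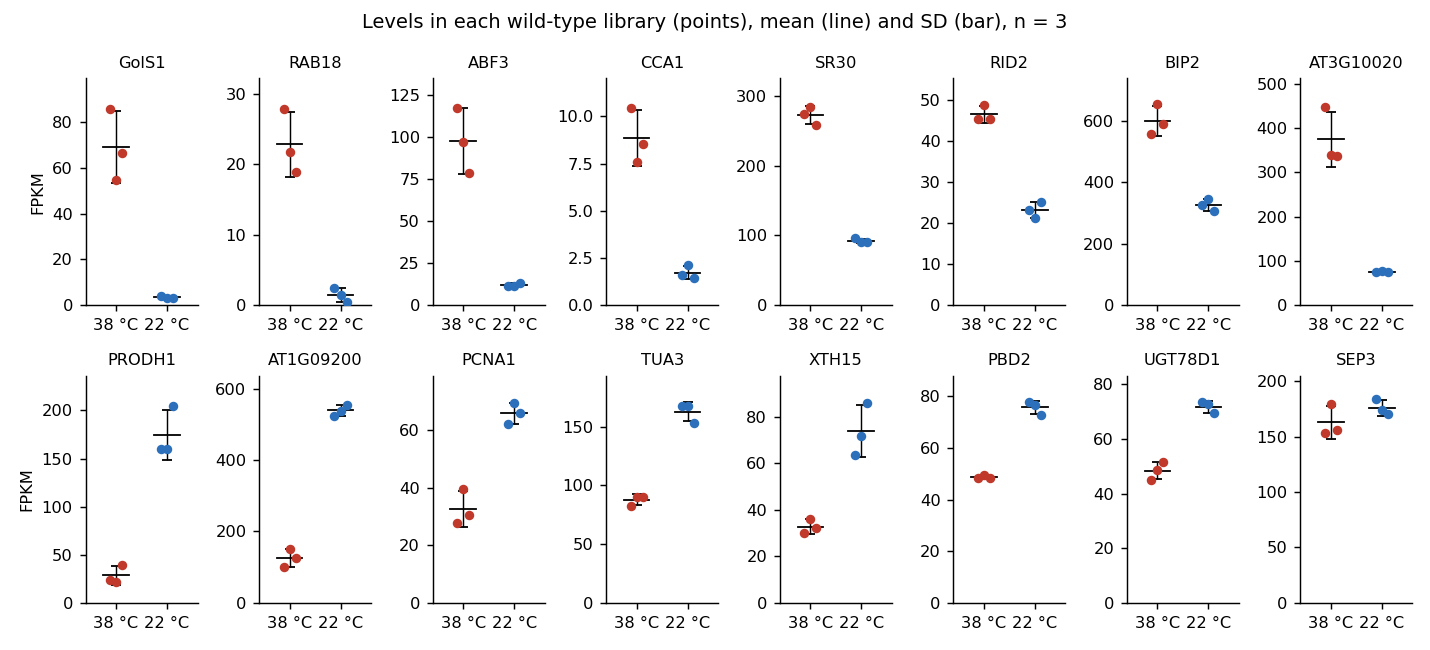
FPKM of 16 genes in each WT library (points), with the mean (line) and SD (bar) of 3 libraries, 38 °C in red on the left and 22 °C in blue on the right of each panel; each axis starts at 0. The upper 8 genes lie higher in every 38 °C library than in any 22 °C library, the next 7 lie lower, and SEP3 overlaps.

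In absolute terms, the largest gain was in an RNA-binding protein. GRP7, which binds RNA and takes part in clock, cold and flowering control (Chr2:9265249-9266393, minus strand), had 9307, 9320.3 and 10351 FPKM at 38 °C and 5195, 4690.3 and 4116 FPKM at 22 °C (a log2 fold change of 0.96, SE 0.09, adjusted p = 2.21e-05). Its close relative GRP8 had 772, 797 and 821 FPKM at 38 °C and 423, 372 and 355 FPKM at 22 °C (0.96, SE 0.08, adjusted p = 1.72e-05). Both pairs of groups were apart, although for GRP7 limma on log2(FPKM + 1) gave an adjusted p of 0.129. TCTP, a small protein linked to growth, averaged 3556 ± 81.2 FPKM at 38 °C and 2321 ± 140.4 FPKM at 22 °C (0.52, adjusted p = 3.15e-04, or 0.0790 with limma).

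Other gains in FPKM were in single genes of unlike function. VSP2, a storage protein induced by jasmonate, averaged 1409.7 ± 361 FPKM at 38 °C and 541 ± 78.7 FPKM at 22 °C (1.29, SE 0.33, adjusted p = 0.0116). BAM5, a beta-amylase, averaged 726 ± 53.0 and 201 ± 46.6 FPKM (1.76, SE 0.29, adjusted p = 0.0011), and GASA4, a gibberellin-regulated peptide, 1098 ± 230.2 and 557 ± 41.6 FPKM (0.89, adjusted p = 4.69e-04). TPX1, a peroxiredoxin, averaged 638 ± 41.7 and 312 ± 3.81 FPKM (0.94, adjusted p = 7.32e-06). AT3G10020, which the table leaves without a description, had 447, 340.0 and 337 FPKM at 38 °C and 74.5, 76.4 and 74.8 FPKM at 22 °C (2.22, SE 0.15, adjusted p = 3.49e-06). LHB1B2 and LHCA1, antenna proteins of the photosystems, had log2 fold changes of 0.75 and 0.88. The call of LHCA1 was lost without replicate 1 at 38 °C (adjusted p = 0.0690), and LHB1B2 overlaps a gene on the other strand. Of 15 listed genes of petal, sepal and leaf chloroplasts 3 rose and none fell, with a median of -0.28. With reference-gene scaling 4 rose, and without replicate 2 at 22 °C or replicate 1 or 3 at 38 °C 1, 0 and 1 rose. The 4 green tissue markers summed to 4176, 3489 and 4027 FPKM at 38 °C and 6615, 4861 and 3773 FPKM at 22 °C.

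The largest losses in FPKM came from genes of several kinds. BGLU18, a beta-glucosidase that can free abscisic acid from its glucose ester, had 1281, 1251 and 1295 FPKM at 38 °C and 1935, 1923 and 1783 FPKM at 22 °C (-0.65, SE 0.10, adjusted p = 6.80e-04). LTP6, a lipid transfer protein, averaged 913 ± 223 and 1483 ± 84.1 FPKM (-0.80, adjusted p = 0.00511). FLR1, a leucine-rich repeat protein, averaged 805 ± 77.0 and 1313 ± 17.2 FPKM (-0.80, adjusted p = 9.11e-05). LCR69, a small cysteine-rich protein, averaged 800.2 ± 63.9 and 1158 ± 25.7 FPKM (-0.63, adjusted p = 0.00123). XTH9, which cuts and rejoins xyloglucan in growing walls, had 335, 461 and 382 FPKM at 38 °C and 812, 849 and 816 FPKM at 22 °C (-1.17, SE 0.11, adjusted p = 3.01e-05). AT4G29030, a putative membrane lipoprotein, averaged 725 ± 154 and 1110.4 ± 73.6 FPKM (-0.71, adjusted p = 0.0242). Its call was lost without replicate 3 at 22 °C (adjusted p = 0.106), replicate 1 at 38 °C (0.0965) or replicate 3 at 38 °C (0.0810). The other 4 were histone genes.

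Most core histone genes fell. Core histones package DNA, and most are made while DNA is copied. Of 42 tested genes taken as core histones by symbol or description, 36 fell and none passed as a rise. Their median log2 fold change was -1.33, against -0.05 over all tested genes. The reference-gene scaling left 33 falls and a median of -1.04. AT1G09200, known as an H3 gene (Chr1:2971593-2972199, minus strand), had 100.03, 151 and 127 FPKM at 38 °C and 524, 538 and 554 FPKM at 22 °C (-2.19, SE 0.16, adjusted p = 6.03e-06). AT5G65360, another H3 gene, had 133, 192 and 164 FPKM at 38 °C and 511, 512 and 550.5 FPKM at 22 °C (-1.78, SE 0.15, adjusted p = 1.72e-05). The H4 gene AT5G59690 averaged 236 ± 30.0 and 604 ± 37.4 FPKM (-1.45, adjusted p = 3.20e-05). In all 3 genes every heat library was far below every mock library.

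H2 histones fell as well. HTB2, an H2B gene (Chr5:7651957-7652622, minus strand), had 283, 376 and 299.9 FPKM at 38 °C and 853, 857 and 914 FPKM at 22 °C (-1.55, SE 0.18, adjusted p = 9.20e-05). All 5 genes named or described as H2B fell, and 8 of 9 named or described as H2A did. Among these were HTA11 and HTA9, which code for the variant H2A.Z that marks heat-sensitive promoters, with log2 fold changes of -1.51 and -0.64; HTA9 overlaps a gene on the other strand. Summed over these H2A genes the level was 714, 886 and 777 FPKM at 38 °C and 1952, 1934 and 2053 FPKM at 22 °C. H2A or H2B genes whose symbol and description do not name them so are left out of these counts and sums. Many histone genes are near-identical copies, so the share of single genes is uncertain, while the sum is less so. Outside the core, the linker histone HIS1-3, known from drought and looked up after these values were seen, rose to 9.57, 4.82 and 8.10 FPKM at 38 °C, against 2.47, 2.04 and 3.097 FPKM at 22 °C (1.46, SE 0.28, adjusted p = 0.00228).

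The promoters of these H3 and H4 genes are shown because they hold the octamer CGCGGATC, a motif known from plant histone genes and marked in capitals. The windows are AT1G09200 at 1:2972335-2972584 (minus strand), AT5G65360 at 5:26120582-26120831 (minus strand) and AT5G59690 at 5:24051224-24051473 (plus strand), all TAIR10.1 and 5′ to 3′ on the gene's strand.
AT1G09200: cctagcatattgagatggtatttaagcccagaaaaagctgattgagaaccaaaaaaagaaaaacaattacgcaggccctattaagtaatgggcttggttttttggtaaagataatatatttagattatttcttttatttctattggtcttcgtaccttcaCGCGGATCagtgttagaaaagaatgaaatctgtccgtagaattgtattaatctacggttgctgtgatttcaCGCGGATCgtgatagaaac
AT5G65360: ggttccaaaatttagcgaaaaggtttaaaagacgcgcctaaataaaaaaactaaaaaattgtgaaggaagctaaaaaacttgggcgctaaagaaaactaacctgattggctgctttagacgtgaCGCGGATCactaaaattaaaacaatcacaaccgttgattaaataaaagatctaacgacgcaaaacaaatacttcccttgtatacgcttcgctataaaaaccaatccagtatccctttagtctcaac
AT5G59690: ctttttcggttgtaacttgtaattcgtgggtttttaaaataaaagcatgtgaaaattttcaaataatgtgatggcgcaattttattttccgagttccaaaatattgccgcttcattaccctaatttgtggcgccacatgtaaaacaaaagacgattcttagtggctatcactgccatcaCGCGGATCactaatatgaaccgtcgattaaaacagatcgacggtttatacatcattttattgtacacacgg
The octamer, searched on both strands, stood in 9 of 42 core histone windows and in 34 of 22925 windows of tested genes, or 0.148%. AT1G09200 holds 2 matches.

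Most listed genes of DNA replication and mitosis fell. None of 38 genes of the cell cycle list rose and 26 fell (median -0.64); with reference-gene scaling 2 rose and 15 fell. PCNA1, the sliding clamp of DNA polymerases, had 27.8, 39.7 and 30.6 FPKM at 38 °C and 62.1, 69.4 and 66.0 FPKM at 22 °C (-1.11, SE 0.15, adjusted p = 2.57e-04). TSO2, a subunit of ribonucleotide reductase that supplies DNA precursors, had 52.0, 67.6 and 58.5 FPKM at 38 °C and 104, 105 and 115 FPKM at 22 °C (-0.96, SE 0.10, adjusted p = 6.57e-05). Groups did not overlap in either gene, and replicate 2 was the highest of the heat libraries in both. The origin proteins ORC6 and CDC45 had log2 fold changes of -1.50 and -1.06.

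The kinases and cyclins of mitosis belonged to the same list. CDKB2;2, a kinase of mitosis found in plants, averaged 21.1 ± 2.99 FPKM at 38 °C and 35.6 ± 0.915 FPKM at 22 °C (-0.85, adjusted p = 3.52e-04). CYCB1;1, a mitotic cyclin, averaged 11.7 ± 3.27 and 23.6 ± 0.834 FPKM (-1.11, adjusted p = 0.0013). CYCD3;1, a cyclin of the entry into division, did not pass, with 35.8 ± 4.09 and 39.0 ± 3.48 FPKM (-0.22, or 0.07 with reference-gene scaling). The list of chromatin genes was mixed, with 7 of 41 higher and 13 lower. The lower ones included FAS1, which places histones on new DNA (-1.02), and MET1, which keeps up DNA methylation (-0.74). In this list 16 rose and 5 fell with reference-gene scaling. Without replicate 3 at 22 °C the falls were 7, without replicate 1 at 38 °C there were 3 rises and 7 falls, and without replicate 2 at 38 °C 3 rises. The E2F site TTTCCCGC stood in 6 of 38 cell cycle promoters and in 0.646% of all windows.

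**Figure D4:**
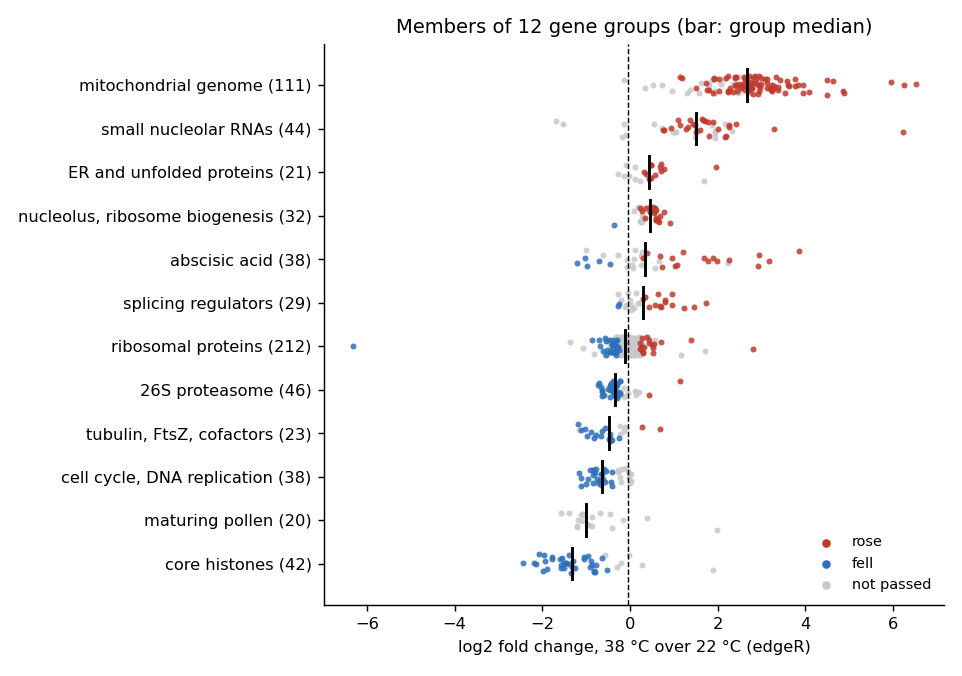
Log2 fold change (38 °C over 22 °C) of every tested member of 12 gene groups, one row per group with its number of tested genes, red for members that rose, blue for those that fell and grey for those that did not pass. Black bars mark group medians, from 2.68 for the mitochondrial genome down to -1.33 for core histones, and the dashed line is the median of all tested genes, -0.05.

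Tubulins, the subunits of microtubules, were lower too. Of 23 genes whose description names tubulin, its folding cofactors or FtsZ, 16 fell and 2 rose, with a median of -0.48; with reference-gene scaling 9 fell and 2 rose. TUA3 (Chr5:6682493-6684579, minus strand) had 82.6, 90.5 and 90.4 FPKM at 38 °C and 168, 167 and 153 FPKM at 22 °C (-0.98, SE 0.07, adjusted p = 4.91e-06). TUA5, which overlaps a gene on the other strand, averaged 158 ± 13.8 and 253 ± 10.9 FPKM (-0.77, adjusted p = 2.98e-05). Both are near-copies of other tubulin genes. TON1B, which organises the cortical array of microtubules, had a log2 fold change of -0.85. Among 22 kinesin motors 8 fell, but with reference-gene scaling none fell and 4 rose. Without replicate 1, 2 or 3 at 22 °C the falls were 4, 2 and 1. Without replicate 1, 2 or 3 at 38 °C they were 1, 11 and 1.

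The 26S proteasome, which degrades proteins tagged with ubiquitin, fell in most of its genes. Of 46 genes on its list 35 fell and 2 rose, with a median of -0.34. PBD2, a beta subunit of the core, had 48.2, 49.4 and 48.5 FPKM at 38 °C and 77.7, 76.7 and 72.9 FPKM at 22 °C (-0.73, SE 0.06, adjusted p = 1.26e-05). RPN8A of the lid averaged 51.1 ± 5.30 and 78.0 ± 2.82 FPKM (-0.70, adjusted p = 7.50e-05), and PBG1 of the core had a log2 fold change of -0.65. One of the genes that rose was NAC53, a transcription factor known to switch proteasome genes on, with 23.9, 20.2 and 21.9 FPKM at 38 °C and 10.6, 8.69 and 8.66 FPKM at 22 °C (1.15, SE 0.10, adjusted p = 2.103e-05). The size of the group's change is close to the shift between scalings: with reference genes 7 members rose and 7 fell, with a median of -0.05. Without replicate 3 at 22 °C 23 members fell.

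Lists of walls and surfaces held falls in part of their genes. Of 36 genes of wall loosening 8 fell and 1 rose (median -0.40), or 5 fell and 3 rose with reference-gene scaling and 5 fell without replicate 1 at 38 °C. The 8 falls were 22.2%, against 16.4% of all tested genes. XTH15, a xyloglucan enzyme, had 30.0, 36.2 and 32.1 FPKM at 38 °C and 63.8, 71.9 and 85.8 FPKM at 22 °C (-1.27, SE 0.14, adjusted p = 8.14e-05). The expansins EXPB3 and EXPA6, which loosen walls, averaged 53.7 ± 15.4 and 217 ± 9.96 FPKM at 38 °C and 136 ± 7.18 and 321 ± 6.69 FPKM at 22 °C (-1.44 and -0.66). In the cuticle and wax list 10 of 29 fell and none rose, or 3 each with reference-gene scaling. Without replicate 2 at 22 °C or replicate 1 or 3 at 38 °C the cuticle falls were 6 each time.

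Enzymes that lengthen fatty acids for wax were among the genes that fell. CER10, the reductase of that complex, had 67.8, 65.7 and 69.0 FPKM at 38 °C and 96.3, 94.5 and 94.4 FPKM at 22 °C (-0.59, SE 0.08, adjusted p = 2.89e-04). Replicates differed little in either group. KCS1 and KCR1 of the same complex averaged 12.4 ± 1.16 and 51.9 ± 1.52 FPKM at 38 °C and 22.2 ± 1.85 and 79.6 ± 2.21 FPKM at 22 °C (-0.94 and -0.71). CB5-B, a cytochrome b5 filed under the same term, had a log2 fold change of -0.87. LTPG1, a carrier of wax lipids, averaged 165 ± 22.0 and 261 ± 5.38 FPKM (-0.76). Of the 19 genes annotated to very long-chain fatty acid synthesis, a term picked for its large share of falls, 11 fell and 1 rose. Lipase genes of the GDSL family, many of them active in cuticles and pollen coats, fell in 18 of 68 cases and rose in 1, or 9 and 6 with reference-gene scaling.

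Lists of pigment and defence chemistry held more falls than rises. Flavonoids are the pigments and sunscreens of petals: 9 of 24 genes fell and 1 rose, or 4 and 1 with reference-gene scaling. Leaving out replicate 2 at 22 °C or replicate 1 at 38 °C left 4 flavonoid falls, and leaving out replicate 2 at 38 °C left 5. UGT78D1, a flavonol glycosyltransferase, averaged 48.4 ± 3.15 FPKM at 38 °C and 71.8 ± 2.18 FPKM at 22 °C (-0.66, adjusted p = 0.00111), and C4H, an early enzyme of the pathway, 54.2 ± 1.37 and 78.2 ± 7.65 FPKM (-0.62, adjusted p = 0.00114). Glucosinolates are mustard oil precursors against herbivores: 6 of 22 genes fell and none rose, or 4 and 1 with reference-gene scaling. CYP83B1 had 4.33, 3.66 and 6.20 FPKM at 38 °C and 11.9, 13.3 and 11.1 FPKM at 22 °C (-1.45, SE 0.25, adjusted p = 0.00145), and CYP79B2 had a log2 fold change of -2.21. AT3G54640, a tryptophan synthase subunit that feeds these indole compounds, and AT5G44070, a phytochelatin synthase, both of the annotation term for defence by callose, changed by -0.86 and -1.07.

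**Figure D5:**
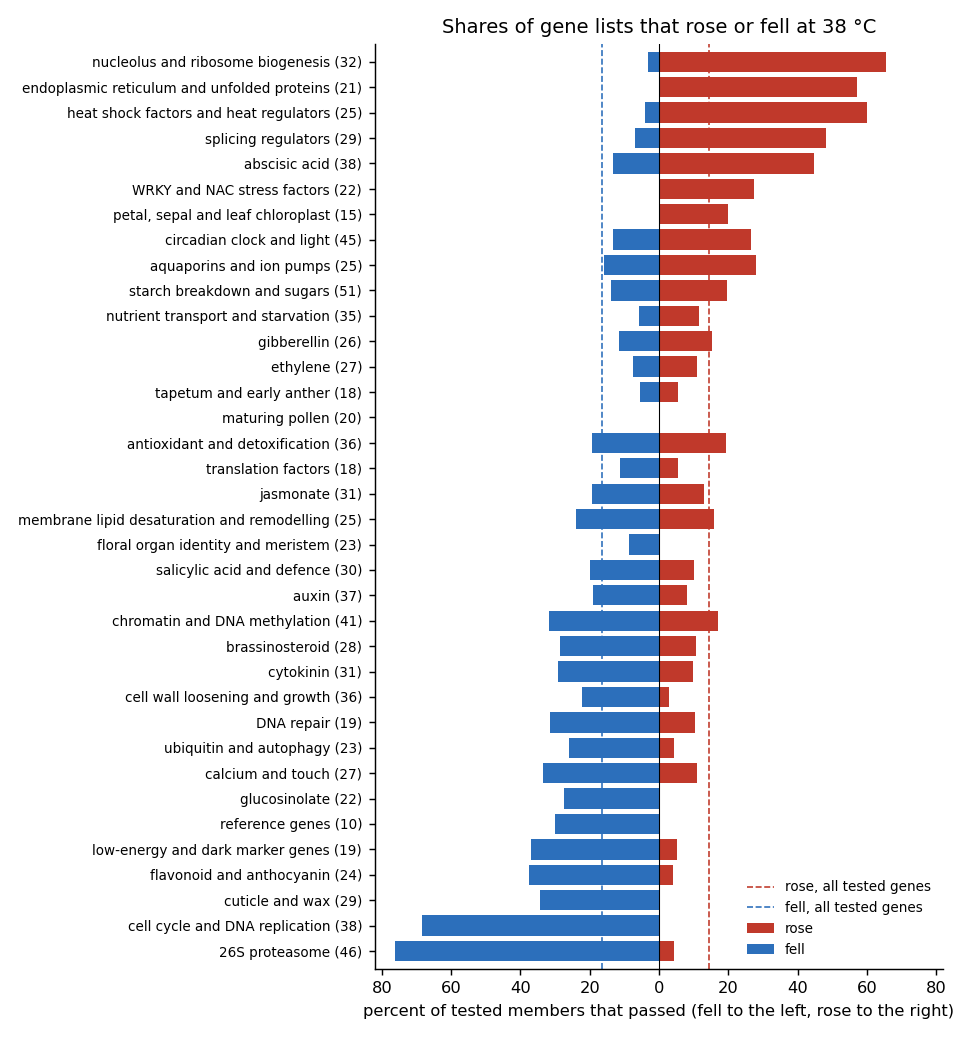
Percent of tested members that rose (red, to the right) or fell (blue, to the left) at 38 °C in 36 gene lists, with the number of tested members after each name; dashed lines are the shares over all tested genes, 14.3% and 16.4%. Lists of the nucleolus, heat regulators and endoplasmic reticulum lie at the top and those of the cell cycle and the proteasome at the bottom.

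Many genes of the nucleolus rose. It makes ribosomes, and 21 of 32 genes on its list rose while 1 fell, with a median of 0.45, against 14.3% of all genes; with reference-gene scaling 30 rose. RID2, a methyltransferase of ribosome assembly, had 45.4, 48.9 and 45.4 FPKM at 38 °C and 23.1, 21.2 and 25.1 FPKM at 22 °C (0.91, SE 0.08, adjusted p = 2.23e-05). BOP1, a factor of the large subunit, had 118, 136 and 114 FPKM at 38 °C and 66.4, 68.7 and 66.6 FPKM at 22 °C (0.77, SE 0.11, adjusted p = 4.10e-04). In both genes the groups were well apart. MTR4 and RH7, helicases of ribosomal RNA maturation, had log2 fold changes of 0.65 and 0.68, AT4G26600, a methyltransferase of the rRNA processing term, 1.13 and EDA14 of the small-subunit processome 0.93. The abundant nucleolar proteins NUC1 and FIB2 did not pass, with 399 ± 29.6 and 106 ± 12.1 FPKM at 38 °C and 315 ± 2.67 and 82.2 ± 1.64 FPKM at 22 °C (0.24 and 0.26, adjusted p = 0.0546 and 0.0933); both passed in several alternatives, with adjusted p down to 7.32e-04 and 0.00308, and FIB2 overlaps another gene.

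Annotation terms of ribosome assembly held more rises than falls. Of 47 genes of the small-subunit processome 31 rose and 2 fell, and of 91 genes of rRNA processing 45 rose and 6 fell. Both terms were picked among 1010 terms for their large share of rises, so these shares follow in part from that choice. Of 26 DEAD-box RNA helicases 15 rose and 3 fell. A further set held 212 genes described as ribosomal proteins and annotated to the cytosolic ribosome, any organellar ones filed there included. Of these 18 rose and 29 fell, or 63 and 2 with reference-gene scaling. These counts were unsteady: there were 11 rises and 7 falls without replicate 1, 7 rises and 18 falls without replicate 2 and 10 falls without replicate 3 at 22 °C. At 38 °C there were 7 falls without replicate 1 or 3, and 6 rises and 39 falls without replicate 2. The site II motif TGGGCC, known from genes of ribosomes and growth, stood in 16 of 32 nucleolar promoters, in 22.3% of windows of genes outside heat shock that rose, in 14.7% of those that fell and in 15.7% of all windows. Among genes outside heat shock that rose 2-fold or more it stood in 15.4% and among those that rose 4-fold or more in 11.4%. It also stood in 16 of 46 proteasome promoters, a list that fell.

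Small nucleolar RNAs, which guide the modification of ribosomal RNA, were called as rises only. Of 44 tested of 68 listed, 26 rose and none fell, with a median of 1.51 (1.79 with reference-gene scaling). Their summed level was 1314, 1429 and 1242 FPKM at 38 °C and 485, 465 and 481 FPKM at 22 °C. Replicates were close and the groups far apart. The 3 neighbours AT4G39363, AT4G39364 and AT4G39366 averaged 104 ± 12.3, 124 ± 22.4 and 174 ± 31.8 FPKM at 38 °C and 30.5 ± 2.93, 35.4 ± 1.64 and 58.5 ± 3.26 FPKM at 22 °C (1.67, 1.71 and 1.48). Without replicate 2 at 22 °C 15 rose and without replicate 2 at 38 °C 16 rose. These RNAs lack long poly(A) tails in their finished form, so libraries of poly(A) RNA read part of them; whether that part changed was not tested.

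Calls in the mitochondrial genome were rises. This genome codes for subunits of the respiratory chain, of ATP synthase and of ribosomes. Of 111 genes tested of 145 listed, 87 rose and none fell, with a median of 2.68, and 67 to 79 rose when 1 library was left out. The genes summed to 2078, 2209 and 1602 FPKM at 38 °C and 416, 637 and 531 FPKM at 22 °C. ATMG01080, subunit 9 of ATP synthase, had 121, 134 and 89.0 FPKM at 38 °C and 11.6, 7.22 and 7.33 FPKM at 22 °C (3.62, SE 0.21, adjusted p = 1.55e-06). ATMG00516, described as NADH dehydrogenase 1C, had 18.4, 19.6 and 13.0 FPKM at 38 °C and 1.95, 2.89 and 2.60 FPKM at 22 °C (2.66, SE 0.30, adjusted p = 8.91e-05); it overlaps a gene on the same strand. The undescribed frames ATMG00170 and ATMG00630 rose more, by 6.54 and 5.97 on the log2 scale.

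The mutant's mitochondrial sums were closer together, with 1272, 989 and 903 FPKM at 38 °C and 639, 955 and 434 FPKM at 22 °C. The heat response differed between genotypes in 6 of the 111 genes. In the chloroplast genome, of 89 genes tested of 132 listed, 7 rose and 1 fell. ATCG00070, a photosystem II protein, was 1 of the 7, at 14.3 ± 1.16 FPKM at 38 °C and 3.45 ± 1.78 FPKM at 22 °C (1.93, adjusted p = 0.00265). The chloroplast sum was 1057, 801 and 999 FPKM at 38 °C and 826, 3229 and 1318 FPKM at 22 °C, so replicate 2 at 22 °C stood apart. Without replicate 3 at 22 °C or replicate 2 at 38 °C 3 chloroplast genes rose, without replicate 1 at 38 °C 4 rose, and without replicate 1 at 22 °C 6 fell. Organellar messages also carry little poly(A), and any change in it was not tested. In the nucleus, 522 genes described as pentatricopeptide or tetratricopeptide repeat-like proteins were tested. Pentatricopeptide repeat proteins process organellar RNA, and these kinds were not counted apart. Of the 522 genes 118 rose and 26 fell, or 257 and 10 with reference-gene scaling. Without replicate 3 at 22 °C 17 fell.

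Of 29 splicing regulators 14 rose and 2 fell (median 0.29; 22 rose with reference-gene scaling). SR30 (Chr1:2942564-2945961, minus strand) had 275, 285 and 258 FPKM at 38 °C and 95.9, 90.6 and 90.03 FPKM at 22 °C (1.47, SE 0.07, adjusted p = 1.99e-07). SR45a had 248, 259 and 213 FPKM at 38 °C and 70.9, 68.4 and 62.4 FPKM at 22 °C (1.74, SE 0.11, adjusted p = 2.79e-06). SR34b averaged 72.5 ± 2.08 and 28.7 ± 1.74 FPKM (1.24, adjusted p = 3.26e-06). These 3 code for serine and arginine rich proteins that choose splice sites, and in each of them the groups lay far apart. Which splice forms these genes made is not read here. Without replicate 2 at 38 °C 4 members fell, without replicate 1 at 38 °C 1 fell, and without replicate 1 or 3 at 22 °C or replicate 3 at 38 °C none fell.

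The endoplasmic reticulum, where secreted proteins fold, showed 12 rises and no fall among 21 genes (median 0.44). BZIP28, a membrane-bound factor that senses unfolded proteins, had 34.6, 33.2 and 32.4 FPKM at 38 °C and 19.3, 19.4 and 18.6 FPKM at 22 °C (0.71, SE 0.08). BZIP17, a factor of the same branch, averaged 35.9 ± 2.80 and 20.6 ± 0.478 FPKM (0.71), and in both genes the groups did not overlap. BZIP60, the factor of the other branch, which acts once its message is spliced, did not pass with 31.0 ± 1.19 and 26.6 ± 2.12 FPKM (0.12, adjusted p = 0.332; it passed with reference-gene scaling, 0.00403). BIP2, the chaperone of this compartment, averaged 601 ± 48.9 FPKM at 38 °C and 326 ± 18.5 FPKM at 22 °C (0.79, adjusted p = 2.51e-04). The list of heat shock factors and regulators rose in 15 of 25 cases and fell in 1. It is represented here by HSFA2 alone, a factor that prolongs the heat response, with 59.2 ± 14.4 and 6.27 ± 0.128 FPKM (3.14). For scale, the chaperone gene HSP18.2 rose by 7.01, and heat shock genes together took 2.57% to 2.77% of all FPKM at 38 °C against 1.57% to 1.66% at 22 °C.

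In the abscisic acid list 17 of 38 genes rose and 5 fell (median 0.35; 22 and 4 with reference-gene scaling). For its synthesis, NCED3, the limiting enzyme, had 3.85, 3.08 and 3.13 FPKM at 38 °C and 0.559, 0.296 and 0.181 FPKM at 22 °C (3.18, SE 0.37, adjusted p = 1.13e-04). Of its receptors, PYR1 had 10.3, 11.4 and 16.9 FPKM at 38 °C and 24.2, 25.9 and 21.1 FPKM at 22 °C (-0.97, SE 0.18, adjusted p = 0.00179). Among the phosphatases that hold the pathway back, HAI1 had 84.6, 83.2 and 74.0 FPKM at 38 °C and 21.4, 21.1 and 22.8 FPKM at 22 °C (1.79, SE 0.11, adjusted p = 1.55e-06). All heat libraries were thus higher for the enzyme and the phosphatase and lower for the receptor. Among its transcription factors, ABF3 averaged 97.8 ± 19.4 and 12.1 ± 1.23 FPKM (2.91, adjusted p = 2.05e-06) and ABI5 105 ± 5.08 and 46.7 ± 2.78 FPKM (1.07, adjusted p = 2.93e-06). The targets RAB18 and RD29A are given above.

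Lists of other hormones follow. In the cytokinin list 3 of 31 genes rose and 9 fell, or 8 and 5 with reference-gene scaling; without replicate 1 at 38 °C 1 rose. The response regulators ARR4 and ARR7, which this hormone induces, averaged 20.4 ± 2.097 and 15.7 ± 1.61 FPKM at 38 °C and 35.4 ± 3.03 and 25.1 ± 2.45 FPKM at 22 °C (-0.89 and -0.77), and CKX5, which degrades it, 4.77 ± 0.110 and 7.85 ± 0.257 FPKM (-0.81). For brassinosteroids 3 of 28 rose and 8 fell, with 5 falls without replicate 2 or 3 at 22 °C, and 5 rises and 2 falls with reference-gene scaling. BZR1, the factor of that pathway, fell (-0.57), as did the growth protein EXL3 (-0.77), while the related EXL2 and the synthesis enzyme ROT3 rose (1.19 and 0.69). BZR1 and CKX5 overlap genes on the other strand.

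Gibberellin, ethylene and auxin gave few calls. In the gibberellin list 4 of 26 rose and 3 fell, with 2 rises without replicate 3 at 38 °C. The synthesis gene KO rose (0.50, adjusted p = 2.98e-04) and GA3OX3 fell, with 0.427 ± 0.125 FPKM at 38 °C and 2.14 ± 0.788 FPKM at 22 °C (-2.40, adjusted p = 0.00223). In the ethylene list 3 of 27 rose and 2 fell, with 1 fall without replicate 1 or 2 at 22 °C or replicate 2 at 38 °C and none without replicate 3 at 22 °C or replicate 1 at 38 °C. Its receptor ETR1, which overlaps a gene on the same strand, averaged 20.4 ± 1.02 and 14.03 ± 0.261 FPKM (0.45), and ACS7, an enzyme of its synthesis, had 0.629, 0.110 and 0.572 FPKM at 38 °C and was at 0 in every mock library (at least 3.09-fold higher). In the auxin list 3 of 37 rose and 7 fell, with 3 falls without replicate 3 at 22 °C or replicate 1 at 38 °C, and 1 rise without replicate 1 or 2 at 22 °C or replicate 1 at 38 °C. GH3.3, which ties auxin to amino acids, fell (-1.01), its relative GH3.5 rose (0.65) and the auxin carrier LAX2 fell (-0.64). With reference-gene scaling the rises and falls were 8 and 1 for gibberellin, 10 and 0 for ethylene and 7 and 2 for auxin.

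Jasmonate and salicylic acid serve defence. In the jasmonate list 4 of 31 rose and 6 fell, or 7 and 0 with reference-gene scaling. The falls were 3 without replicate 2 at 22 °C or replicate 2 at 38 °C, and the rises 2 without replicate 3 at 22 °C or replicate 1 or 3 at 38 °C. In the salicylic acid list 3 of 30 rose and 6 fell, or 6 and 3 with reference-gene scaling, with 3 falls without replicate 1 or 2 at 38 °C and 1 rise without replicate 1 at 22 °C or replicate 1 at 38 °C. FLS2, the receptor for bacterial flagellin, had 0.539, 0.514 and 0.708 FPKM at 38 °C and 2.49, 1.99 and 1.36 FPKM at 22 °C (-1.81, SE 0.23, adjusted p = 1.91e-04). EDS1, a hub of immunity, averaged 9.84 ± 0.717 and 14.01 ± 1.59 FPKM (-0.60), while NPR4, a receptor of salicylic acid, averaged 22.4 ± 1.91 and 12.3 ± 0.848 FPKM (0.77). Of 22 stress factors of the WRKY and NAC families 6 rose and none fell. ANAC072, a factor of drought, averaged 4.43 ± 0.642 and 1.43 ± 0.128 FPKM (1.53), ATAF1, which overlaps a gene on the other strand, 45.4 ± 8.63 and 23.2 ± 4.50 FPKM (0.87) and NAC089 15.7 ± 1.05 and 10.03 ± 0.597 FPKM (0.55).

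Clock genes were called in both directions. In the clock and light list 12 of 45 genes rose and 6 fell (23 and 5 with reference-gene scaling). CCA1 and LHY, a pair of related morning factors, went opposite ways. CCA1 had 10.5, 7.57 and 8.54 FPKM at 38 °C and 1.61, 2.11 and 1.43 FPKM at 22 °C (2.27, SE 0.19, adjusted p = 1.38e-05). LHY had 0.185, 0.280 and 0.509 FPKM at 38 °C and 1.02, 1.19 and 1.04 FPKM at 22 °C (-1.82, SE 0.34, adjusted p = 0.00209). PRR7, a repressor of both (Chr5:637897-641977, minus strand), had 57.3, 59.5 and 53.7 FPKM at 38 °C and 20.5, 23.3 and 21.6 FPKM at 22 °C (1.29, SE 0.09, adjusted p = 3.53e-06). The heat element in its promoter is shown above.

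LNK1, a coactivator of the morning, and TOC1, an evening repressor, averaged 27.8 ± 1.52 and 102 ± 8.35 FPKM at 38 °C and 13.0 ± 1.00 and 52.4 ± 3.97 FPKM at 22 °C (1.00 and 0.87). The 3 members of the evening complex, a temperature sensor of the clock, did not pass: ELF3 (0.04, adjusted p = 0.731), ELF4 (0.21, 0.435) and LUX (0.08, 0.450). With reference-gene scaling ELF3 and LUX passed as rises (adjusted p = 0.0118 and 0.00420). The labels give no hour of sampling, so time of day and temperature cannot be told apart if the groups were taken at different hours. The evening element AAATATCT stood in 7 of 45 promoters of the list and in 4.94% of all windows.

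Lists of carbon use held calls in both directions. The low-energy list, whose members are switched on in the dark or without sugar, had 7 falls and 1 rise among 19 genes (median -0.46; 5 and 4 with reference-gene scaling). Besides PRODH1 and DIN10, DIN6, an asparagine synthetase, had 16.6, 9.90 and 17.1 FPKM at 38 °C and 29.9, 31.4 and 24.3 FPKM at 22 °C (-1.07, SE 0.26, adjusted p = 0.0102). The 1 rise was EXL2. In the list of starch and sugars 10 of 51 rose and 7 fell (19 and 4 with reference-gene scaling). SIP2, a raffinose-splitting enzyme, had 32.8, 30.4 and 27.7 FPKM at 38 °C and 116, 108 and 86.9 FPKM at 22 °C (-1.87, SE 0.18, adjusted p = 2.87e-05). With GolS1 up, a gene that begins raffinose synthesis was thus higher and this gene of its breakdown lower in every heat library. DIN10, of the raffinose synthase family, was lower as well (-2.26). BAM9, a relative of beta-amylases, averaged 8.69 ± 0.366 and 30.5 ± 1.21 FPKM (-1.904), and TPS8, of the trehalose phosphate synthase family, 20.8 ± 2.72 and 8.79 ± 0.277 FPKM (1.15). Of 171 genes described as sugar transporters, nodulin MtN3 or major facilitator superfamily proteins 38 fell and 12 rose. With reference-gene scaling 14 fell and 34 rose, and 7 rose without replicate 2 at 22 °C. Not every description in this set names sugar, so the counts are not those of sugar carriers alone. The 38 falls were 22.2%, against 16.4% of all tested genes.

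Membranes, water and ions changed in single genes. FAD2, which makes most linoleic acid, averaged 691 ± 71.6 FPKM at 38 °C and 407 ± 17.6 FPKM at 22 °C (0.67, adjusted p = 6.49e-04), while FAD8, a plastid desaturase of the last step to trienoic acids, averaged 9.49 ± 0.687 and 14.2 ± 1.899 FPKM (-0.67, adjusted p = 0.002) and overlaps a gene on the other strand. SQD1 of sulfolipid synthesis rose (0.51) and phospholipase D alpha 1, listed as PLD, fell (-0.69); the lipid list held 4 rises and 6 falls among 25 genes, or 8 and 2 with reference-gene scaling. Among aquaporins and pumps 7 of 25 rose and 4 fell, with 9 and 1 under reference-gene scaling and 4 rises without replicate 2 at 22 °C or replicate 1 at 38 °C. TIP2;2, an aquaporin of the vacuole, had 29.7, 24.4 and 27.8 FPKM at 38 °C and 6.61, 7.22 and 3.19 FPKM at 22 °C (2.18, SE 0.47, adjusted p = 0.00523), PIP2;5 rose by 0.70 and PIP2;8 changed by -0.77. In the calcium list 3 of 27 rose, GLR3.3 among them (0.70), and 9 fell, CPK5 among them (-0.54, adjusted p = 4.89e-04, or 0.0558 with reference-gene scaling); with that scaling 6 rose and none fell.

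Redox, nutrient and repair lists were small in calls. In the antioxidant list 7 of 36 rose and 7 fell (14 and 3 with reference-gene scaling), and beside the steep rise of APX2, glutathione reductase GR1 averaged 26.7 ± 0.809 FPKM at 38 °C and 36.3 ± 3.42 FPKM at 22 °C (-0.54, adjusted p = 2.49e-04). In the nutrient list 4 of 35 rose and 2 fell, or 10 and 0 with reference-gene scaling, with 2 rises without replicate 1 at 38 °C and 1 fall without replicate 1 at 22 °C or replicate 1 or 2 at 38 °C. SPX1, a phosphate sensor, averaged 19.9 ± 1.12 and 9.47 ± 1.01 FPKM (0.98) and LSU2, a marker of low sulfur, 18.19 ± 0.258 and 7.35 ± 1.69 FPKM (1.21). Of 19 DNA repair genes 2 rose and 6 fell (7 and 4 with reference-gene scaling), with 1 rise without replicate 2 at 22 °C or replicate 2 at 38 °C. UVR2 and UVR3, which mend DNA damaged by ultraviolet light, averaged 6.85 ± 0.815 and 2.74 ± 0.242 FPKM at 38 °C and 15.2 ± 2.12 and 5.82 ± 0.436 FPKM at 22 °C (-1.25 and -1.18); UVR2 overlaps a gene on the other strand.

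Genes that define floral organs gave few calls. Of 23 genes of organ identity and meristem 2 fell and none rose, where 16.4% of all tested genes fell, and with reference-gene scaling 4 rose and none fell. SEP2, a partner of the organ identity factors, had 90.1, 93.5 and 85.6 FPKM at 38 °C and 107, 112 and 108 FPKM at 22 °C (-0.37, SE 0.07, adjusted p = 0.00177, or 0.383 with reference-gene scaling). STK, the ovule identity factor, had 47.4, 69.1 and 45.9 FPKM at 38 °C and 99.9, 68.0 and 69.4 FPKM at 22 °C (-0.64, SE 0.18, adjusted p = 0.0201). The groups overlapped in STK, and its adjusted p was 0.0831 without replicate 1 at 22 °C and 0.0822 and 0.0779 without replicate 1 or 3 at 38 °C. Without replicate 2 at 38 °C 4 members fell, and without replicate 1 at 22 °C or replicate 1 or 3 at 38 °C 1 fell.

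The main organ identity genes did not pass. SEP3 had 152.9, 179.7 and 155.6 FPKM at 38 °C and 184, 174 and 170.3 FPKM at 22 °C (-0.21, adjusted p = 0.0780), and it passed without replicate 2 at 38 °C (0.0314). AP3, of petals and stamens, averaged 90.9 ± 3.84 and 104 ± 7.09 FPKM (-0.29, adjusted p = 0.121), and AG, of stamens and carpels, 38.6 ± 2.48 and 40.6 ± 2.25 FPKM (-0.17, adjusted p = 0.135). The sign of SEP3, AP3 and AG turned with reference-gene scaling, to 0.08, 0.0039 and 0.12 without a call. A p that misses the threshold does not show that a level stayed the same.

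Anther genes gave single calls. Of 18 genes of the tapetum and early anther 1 rose and 1 fell. DYT1, a regulator at the start of the tapetum, had 0.301, 0.319 and 0 FPKM at 38 °C and 1.63, 4.64 and 3.295 FPKM at 22 °C (-3.95, SE 1.24, adjusted p = 0.0315). TPD1, a peptide that sets tapetum identity, had 10.2, 9.29 and 10.11 FPKM at 38 °C and 8.31, 6.04 and 6.14 FPKM at 22 °C (0.44, SE 0.15, adjusted p = 0.0447). The groups were apart in both, but DYT1 missed the threshold without replicate 2 or 3 at 22 °C (adjusted p = 0.0858 and 0.0662) or replicate 1, 2 or 3 at 38 °C (0.0741, 0.0640 and 0.0734). TPD1 missed it without replicate 2 or 3 at 22 °C (0.149 and 0.0951) or replicate 1, 2 or 3 at 38 °C (0.122, 0.0630 and 0.104). AMS, a tapetum regulator that acts later than DYT1, did not pass, with 19.4 ± 4.33 and 22.7 ± 6.15 FPKM (-0.32, adjusted p = 0.319). None of 20 genes of maturing pollen passed, although their median was -1.01, and their spread within groups was wide, as the sums above show.

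Some genes were read at one temperature and at 0 counts at the other. Of 1991 genes at 0 in every 22 °C library, 139 were above 0 in every 38 °C library, and of 1622 at 0 in every 38 °C library 62 were above 0 in every 22 °C library. Folds are bounds against a floor of 12 counts per library, worth 3 fragments if each gave 4 counts, which was not tested. Each bound uses the mean of the higher group, so a single library can lie at the floor. Replicate 2 did so with 12 counts for AT3G48208 at 22 °C and for ACS7 at 38 °C. AT3G59730, described as a lectin protein kinase, had 5.67, 5.38 and 7.13 FPKM at 38 °C, which makes it at least 42.0-fold higher. The plastid chaperone HSP21 had 13.4, 10.9 and 12.2 FPKM, at least 50.4-fold higher. AT1G58130 and AT5G07330, both without a description, averaged 6.60 ± 1.80 and 5.54 ± 0.396 FPKM at 38 °C, at least 21.0-fold and 19.95-fold higher. AT4G36988, at 22.0 ± 2.85 FPKM, is a short upstream frame with the same coordinates as HSFB1, so reads of HSFB1, which rose itself (1.22), could have been given to it.

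In the other direction, LCR4, a small cysteine-rich protein, had 0 at 38 °C and 4.44, 3.71 and 3.174 FPKM at 22 °C, at least 4.64-fold lower. AT2G04020, a GDSL lipase, had 0 at 38 °C and 2.099, 1.17 and 0.999 FPKM at 22 °C, at least 5.57-fold lower. AT3G48208, a thionin family protein, had 0 at 38 °C and averaged 1.24 ± 0.506 FPKM at 22 °C, at least 1.68-fold lower, with an adjusted p of 0.0182, or 0.0518 without replicate 1 at 38 °C. By type of gene, transcribed pseudogenes rose in 19.3% of 274 cases and fell in 4.01%, and long noncoding RNAs rose in 17.0% of 194 and fell in 4.12%, while protein-coding genes rose in 13.8% and fell in 17.1%.

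The heat response of the wild type differed from that of the mutant in 374 genes (1.59% of those tested). This count was 24 without the 3 libraries of the series that stand apart, and 60 to 499 without 1 library. The 3 are wild-type replicate 2 at 38 °C and, in the mutant, replicate 1 at 38 °C and replicate 2 at 22 °C. On component 2 of all 12 libraries they lay at -43.4, -45.3 and -88.3, with the others at -6.56 to 39.1. Genes named above that differed are listed with their values among the results for a closer look. The 2 genotypes were compared within the same fit, and each has its own control libraries.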

How the data were processed

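RNA of flowers was enriched for poly(A) with oligo(dT) beads, made into libraries with dUTP in the second strand and read in pairs, per the labels' protocols. TAIR10 is the build, and StringTie 1.3.4d, HISAT2 2.0.4 and cutadapt 1.9 are the tools listed, per the submitters' processing notes. The table deposited by the authors holds 1 estimated count and 1 FPKM value per gene and library. The counts are whole, 47.2% of those up to 20 are multiples of 4, and the counting step and strand setting are not given in the sources used here. FPKM values were used as the authors deposited them, for levels only.

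Counts were fitted with edgeR 4.0.16 (R 4.3.3) by the quasi-likelihood test, two-sided: trimmed mean of M-values, filterByExpr with a minimum count of 10, 1 mean for each of the 4 groups over all 12 libraries, and Benjamini-Hochberg adjustment over 23585 genes with a threshold of 0.05. Each SE is the size of the log2 fold change over the root of F. The code of the fit was run on simulated counts with 200 changed genes, and the outcome of that check is not given here. DESeq2 1.42.0 and limma 3.58.1 served as alternatives. The genotype difference is the interaction of temperature and genotype in the same fit. Of the genes, 94.2% had a RefSeq locus. Positions of genes are TAIR10, as in the table, and promoter windows TAIR10.1.

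The members, the 36 lists (1053 names used) and the tests were chosen with earlier results of these data known. Named were the 15 largest rises and falls outside heat shock with a symbol, groups that do not overlap and at least 5 FPKM in the higher group. Also named were up to 4 called members of a list by smallest p, up to 3 of the picked annotation terms, the 10 largest gains and losses in FPKM, and up to 5 genes at 0 in 1 group. Annotation terms were picked for the largest shares of rises or falls among 1010 terms. Terms that largely repeat one already taken were skipped. Other list members may be given with values. HIS1-3, HSFB1 and the single genes of the mitochondrial and chloroplast genomes were added after their values were seen. The 37 gene families taken by description, type or position were also chosen with the data seen. Histones, tubulins, small nucleolar RNAs and the organellar genomes are among these families. Without a strand setting, reads of overlapping genes cannot be told apart; 16.0% of called and 15.7% of tested genes overlap another gene. No column was left without a sample.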

Additional observations from a re-analysis of the deposited data

Results flagged for a closer look

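For 24 of the genes named, the heat response differed between the wild type and the XBAT31 mutant by the interaction test of edgeR, with adjusted p between 0.00219 and 0.0483. Values are the log2 fold change of heat in the wild type minus that in the mutant, so a positive value means a higher one in the wild type. All 24 kept their sign without the 3 libraries of the series that stand apart, but 7 passed there. When each of the 12 libraries was left out in turn, 9 of the 24 passed in every fit.

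The 9 that passed in all 12 such fits were AT3G10020 (1.99), the splicing factor SR45a (1.15), the phosphatase HAI1 (1.47), the mitochondrial ATMG01080 (1.85), TPS8 (1.45), the cytokinin response regulators ARR4 (-1.27) and ARR7 (-1.56), EXL2 (1.78) and SPX1 (-1.32). Without the 3 libraries the adjusted p of ATMG01080, ARR7 and SPX1 was 0.0704, 0.0519 and 0.0543. The other 6 passed there as well. The 7th gene to pass there was BZIP28 (0.69, adjusted p = 0.0483 without them), which passed in 8 of the 12 fits.

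The rest passed in fewer fits. BAM9 (1.48) passed in 11, and ABF3 (1.46), NAC53 (0.84), NPR4 (0.74) and FLS2 (-1.94) passed in 8 each. ATAF1 (1.32) passed in 7, MBF1C (2.06) and ATMG00170 (2.68) in 3, and RLP30 (2.11), HSA32 (0.84), ATMG00630 (2.37) and GH3.5 (0.98) in 2. LHB1B2 (0.90) passed in 1 and TOC1 (0.54) in none. SPX1 rose in the wild type while its difference from the mutant is negative, and BAM9 fell in the wild type while its difference is positive.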

How the results depend on the processing

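Of the 166 named genes that passed, 13 lost the call when 1 wild-type library was left out, and their values stand in the report. With scaling on 10 reference genes 7159 genes rose and 1278 fell, and the log2 fold changes of CYCD3;1 (0.074), SEP3 (0.080), AP3 (0.0039) and AG (0.12) changed sign, none of them called in either setting. A test against a 2-fold change by glmTreat called 297 genes (231 rose, 66 fell), as a larger change was asked for. Without 1 wild-type library 5139 to 6046 genes were called, 2538 to 2983 rose and 2568 to 3330 fell, with fewer samples in the fit. The genotype difference held 60 to 499 genes without 1 of the 12 libraries and 24 without the 3 libraries that stand apart; the cause was not tested. Replicate numbers did not pair the samples: correlations of same-numbered deviations were 0.029, -0.053 and -0.013. With the replicate number as a block 6350 genes were called (3338 rose, 3012 fell), and 3 named genes missed the threshold. Of 3181 values of named genes under 18 alternatives, 2970 kept direction and side of the threshold, 185 lost the call, 22 gained one and 4 changed sign. Changes below 1.5-fold make up 1693 of the rises and 1932 of the falls.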
